A study of Mus musculus with 18 samples.

Results

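The 39 genes described here encode the glucose transporters, enzymes and lactate exporter of glycolysis, the enzymes of the pentose phosphate pathway, and the enzymes that build and break down glycogen. They were taken by symbol from the 25731 gene symbols counted in mouse heart, and 38 of them were among the 15088 genes that passed the low-count filter. The member left out was Aldoc, an aldolase known from brain, which had 0 to 13 counts in IR+Decursin libraries, 6 to 26 in IR libraries and 1 to 9 in SHAM libraries. For this report, 11 members were grouped as muscle-type isoforms and 13 as non-muscle or broadly expressed isoforms. These class names are approximate and do not mean that a gene is absent from the other tissue. Ldhb, the lactate dehydrogenase subunit typical of heart, stands as muscle-type against Ldha. Ldha is itself the subunit typical of skeletal muscle, so for this pair muscle-type means heart-type only. Pfkfb1, a liver and skeletal muscle form, is also placed as muscle-type. The lactate exporter Slc16a3 is placed with the non-muscle or broad isoforms, though it is also known from fast skeletal muscle. It has no muscle-type counterpart among the members. A further 5 are glycolytic enzymes with 1 member here, 7 belong to the pentose phosphate pathway, and 3 are glycogen enzymes with 1 member.

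The hearts came from wild-type adult male C57BL/6 mice, 6 animals in each of 3 groups, and all were collected on day 7 after surgery. IR+Decursin mice had ischemia-reperfusion, in which blood flow to the heart muscle is stopped and then restored, and were given decursin, a plant coumarin. IR mice had ischemia-reperfusion without decursin, and SHAM mice had the surgery without ischemia. The sources used here do not state the dose, route or timing of decursin, the length of ischemia or the region of the heart sampled.

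Library totals were 31.0 to 35.0 M counts in IR+Decursin, 28.9 to 34.5 M in IR and 27.5 to 33.4 M in SHAM. The labels name 3 batches, and each holds the libraries of 1 group, so batch and group cannot be told apart. The 13 mitochondrially encoded genes took 24.6% ± 2.21 of counts in IR+Decursin, 24.4% ± 3.06 in IR and 31.1% ± 1.56 in SHAM (SD, n = 6 each). Against the male label, IR 3, IR 4 and IR+Decursin 2 had over 1000 counts of Xist, which is transcribed from the inactive X chromosome of female cells, and 0 counts of the Y-linked gene Ddx3y. In IR+Decursin 6 the noncoding RNA Gm26917 took 7.54% of counts, and this library lay near SHAM in several of the genes below.

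Glycolysis splits glucose into pyruvate with a net gain of ATP, and the pentose phosphate pathway diverts glucose 6-phosphate to make NADPH and ribose. Many steps can be run by either of several isoenzymes from separate genes. Heart muscle is known to use a muscle-type set together with its own glycogen store, while proliferating and immune cells use broadly expressed forms. In the adult heart fatty acids are the main fuel, and glucose use is known to change with ischemia, growth and failure.

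Levels are compared between genes as FPKM, the authors' counts scaled by gene length and library total. The member with the highest mean in every group was Ldhb, the lactate dehydrogenase subunit typical of heart, at 976 ± 130 FPKM in IR+Decursin, 847 ± 130 FPKM in IR and 1196 ± 74.7 FPKM in SHAM. Tpi1, triosephosphate isomerase, was next at 468 ± 40.0 FPKM in IR+Decursin, 449.8 ± 44.3 FPKM in IR and 452 ± 15.2 FPKM in SHAM. Pgam2, the muscle phosphoglycerate mutase, followed at 336 ± 70.7 FPKM in IR+Decursin, 239 ± 26.5 FPKM in IR and 400 ± 41.4 FPKM in SHAM (SD, n = 6 each). This order depends on the length used for each gene. By counts relative to library size alone (CPM, explained below), SHAM means were 1765 for Ldhb, 1412 for Eno3, 1166 for Pkm, 750 for Tpi1 and 408 for Pgam2. Among tested members the lowest SHAM means were 0.311 FPKM for Hk3, 0.403 FPKM for Slc16a3, 0.782 FPKM for Pfkfb4 and 1.22 FPKM for Aldoa. Aldoa, the muscle aldolase, had only 49 to 193 counts in any library. GENCODE vM21, which need not be the annotation used for the counts, lists 2 gene models under that symbol. The counts hold 1 row for Aldoa, so its level here is uncertain.

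Within a gene, levels are given as CPM, counts relative to library size after scaling by the trimmed mean of M-values (TMM), and changes as log2 fold changes with their standard error. A gene was called when the edgeR quasi-likelihood test gave a Benjamini-Hochberg adjusted p under 0.05 over all genes tested. Between IR and SHAM hearts, 11 members rose and 17 fell, and 10 were not called. Over all 15088 genes, 25.3% rose and 21.7% fell. The median change was -0.14 over the members and -0.00 over all genes. The 2 isoform classes moved in opposite directions: 9 of 11 muscle-type isoforms fell and none rose, with a median of -0.66, and 7 of 12 tested non-muscle isoforms rose and none fell, with a median of 0.65. Without the 3 libraries with Xist counts, 10 members rose and 17 fell, and the member lost was Rpe (adjusted p = 0.0790).

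**Figure D1:**
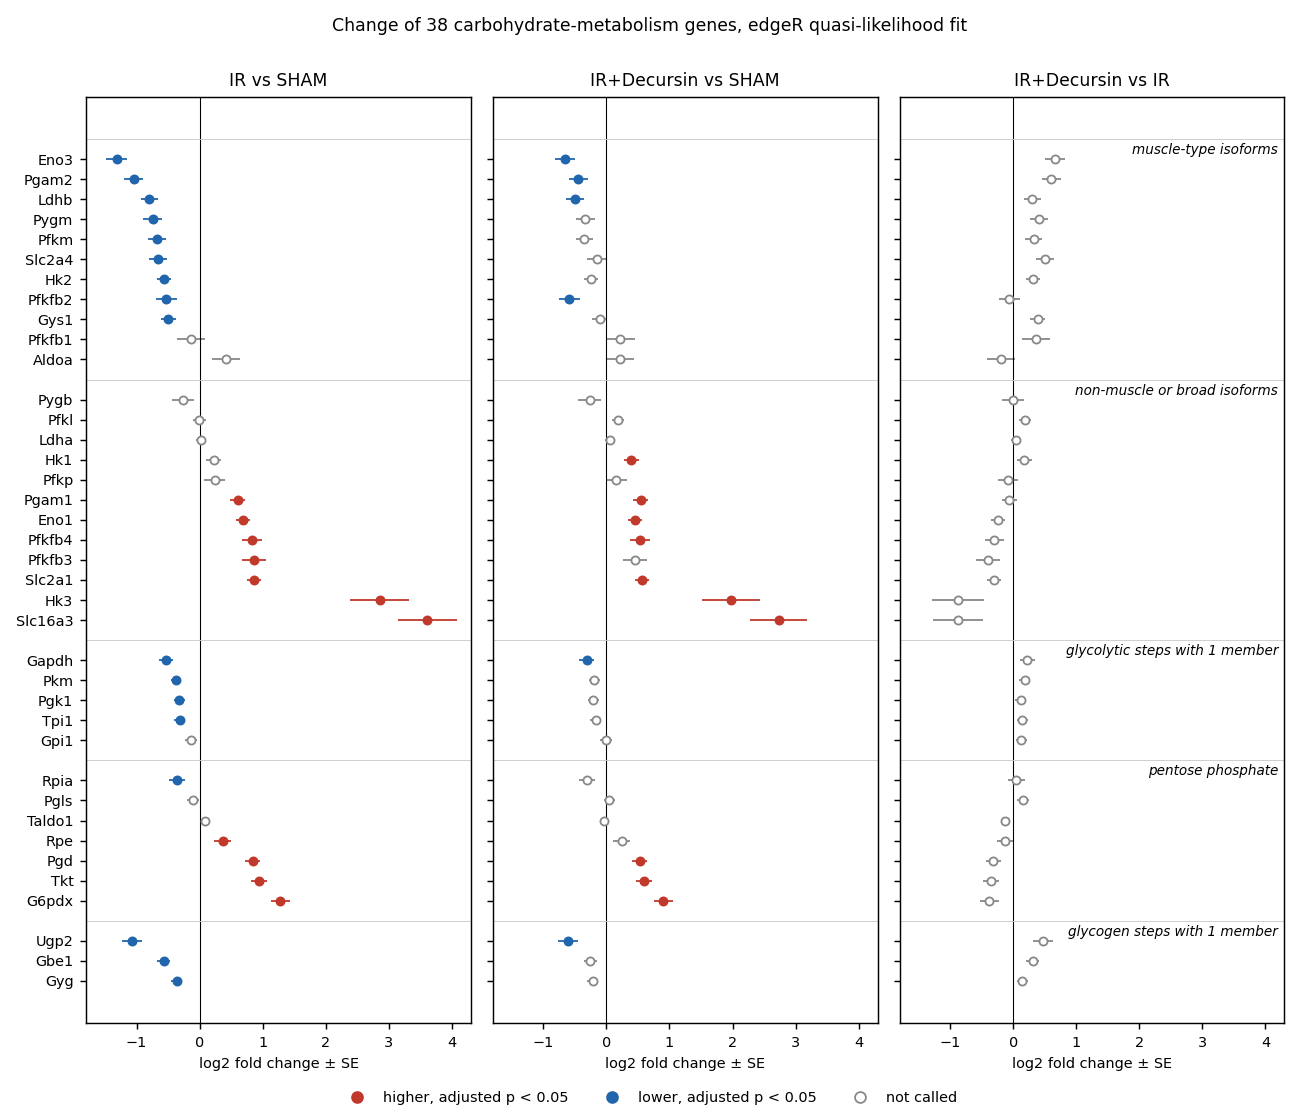
Log2 fold change (x axis) with its standard error for the 38 tested members (y axis, by class and ordered by the IR vs SHAM change) in 3 comparisons of 6 libraries a group. Filled points are called; most muscle-type isoforms lie left of 0 and most non-muscle isoforms right of 0 in IR vs SHAM, and no point is called in IR+Decursin vs IR.

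The muscle-type isoform that fell most was Eno3, the muscle enolase, which makes phosphoenolpyruvate. Eno3 ranged over 605 to 1195 CPM with a median of 888 CPM in IR+Decursin hearts, 403 to 786 CPM with a median of 529 CPM in IR hearts, and 1279.7 to 1651 CPM with a median of 1343 CPM in SHAM hearts. All IR and all IR+Decursin libraries were below all SHAM libraries, and the IR+Decursin and IR ranges overlapped. The log2 fold change of Eno3 was -1.32 ± 0.16 in IR vs SHAM (adjusted p = 6.49e-06).

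Pgam2 acts one step earlier, moving the phosphate on phosphoglycerate. It ranged over 171 to 427 CPM (median 315) in IR+Decursin, 163 to 229 CPM (median 196) in IR and 369 to 470 CPM (median 400.3) in SHAM. All 6 IR libraries lay below SHAM, while IR+Decursin 1 lay in the IR range, IR+Decursin 6 in the SHAM range and the other 4 between them. Pgam2 fell in IR with a log2 fold change of -1.04 ± 0.15 (adjusted p = 2.23e-05).

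Ldhb, which favours the conversion of lactate to pyruvate, ranged over 915 to 1655 CPM (median 1234) in IR+Decursin, 812 to 1303 CPM (median 940.1) in IR and 1527 to 1930 CPM (median 1778) in SHAM. Every IR library was below every SHAM library, and Ldhb fell by 0.80 ± 0.14 on the log2 scale (adjusted p = 0.000101). Slc2a4 encodes GLUT4, the insulin-responsive glucose transporter of muscle. It ranged over 227 to 421 CPM (median 336) in IR+Decursin, 160.0 to 304 CPM (median 236) in IR and 319 to 415 CPM (median 374) in SHAM. IR libraries were again all below SHAM, and the IR+Decursin libraries overlapped with both, with a log2 fold change of -0.66 ± 0.15 in IR vs SHAM (adjusted p = 0.00104).

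Of the other muscle-type members, 5 were called lower in IR and 2 were not called. Pygm, the muscle glycogen phosphorylase that releases glucose units, fell by 0.74 ± 0.15 on the log2 scale, and Pfkm, the muscle phosphofructokinase that commits sugar to glycolysis, fell by 0.68 ± 0.14. Hk2, the insulin-responsive hexokinase, fell by 0.56 ± 0.11, and Gys1, muscle glycogen synthase, by 0.50 ± 0.12. Pfkfb2, the heart form of the enzyme that sets the phosphofructokinase activator fructose 2,6-bisphosphate, fell by 0.53 ± 0.17 (adjusted p = 0.0148), with overlapping groups. Pfkfb1, its liver and skeletal muscle form, had -0.14 ± 0.22 and Aldoa had 0.41 ± 0.23, and neither was called (adjusted p = 0.642 and 0.139). Aldoa was called higher without IR 2 (0.56, adjusted p = 0.0218).

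**Figure D2:**
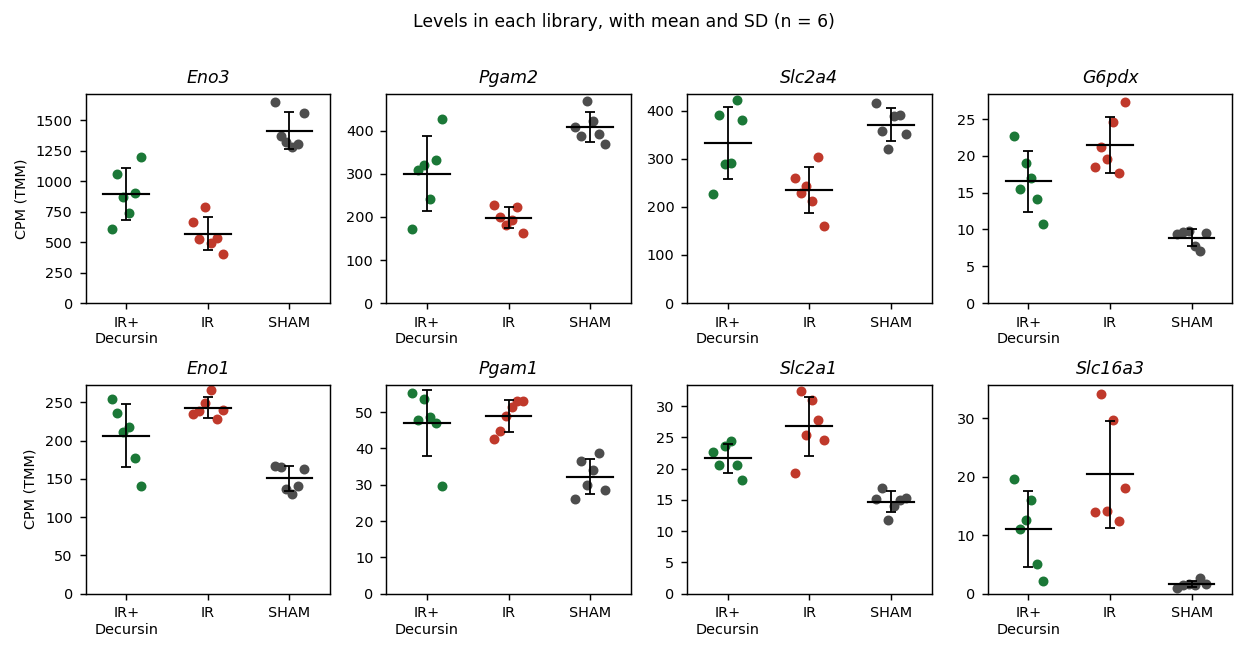
CPM after TMM scaling (y axis, from 0) of 8 members in each library of IR+Decursin, IR and SHAM (x axis); points are libraries, bars the mean and SD of 6. Eno3, Pgam2 and Slc2a4 are lower in IR than in SHAM, the other 5 genes are higher, and the IR+Decursin points overlap with 1 or both of the other groups in most panels.

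Among members classed as non-muscle or broad, the greatest rise was in Slc16a3. It encodes MCT4, a lactate exporter of highly glycolytic cells, fast skeletal muscle among them. Slc16a3 ranged over 2.22 to 19.6 CPM (median 11.8) in IR+Decursin, 12.4 to 34.1 CPM (median 16.1) in IR and 1.05 to 2.70 CPM (median 1.57) in SHAM. All IR libraries were above all SHAM libraries, and of the IR+Decursin libraries only IR+Decursin 6 lay within the SHAM range. The log2 fold change was 3.61 ± 0.46 in IR vs SHAM (adjusted p = 1.68e-05).

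Hk3, a hexokinase known from blood and immune cells, ranged over 1.09 to 9.65 CPM (median 4.78) in IR+Decursin, 3.72 to 16.0 CPM (median 7.17) in IR and 0.547 to 1.66 CPM (median 1.33) in SHAM. IR libraries were all above SHAM, and Hk3 rose by 2.85 ± 0.46 on the log2 scale (adjusted p = 9.43e-05). Its counts were 28 to 367 in IR+Decursin libraries, 140 to 623 in IR libraries and 15 to 51 in SHAM libraries, so its fold change rests on few SHAM reads.

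Eno1, the broadly expressed enolase, ranged over 141 to 255 CPM (median 214) in IR+Decursin, 228 to 266 CPM (median 239) in IR and 131 to 166 CPM (median 152) in SHAM. Pgam1, the broadly expressed phosphoglycerate mutase, ranged over 29.8 to 55.2 CPM (median 48.2) in IR+Decursin, 42.5 to 53.0 CPM (median 50.2) in IR and 26.04 to 38.7 CPM (median 31.9) in SHAM. For both genes the IR libraries lay wholly above SHAM, and IR+Decursin 6 was the only IR+Decursin library inside the SHAM range. Eno1 rose by 0.69 ± 0.11 and Pgam1 by 0.60 ± 0.12 on the log2 scale in IR vs SHAM (adjusted p = 6.06e-05 and 0.000521). Pgam1, Eno1, Ldha and Gapdh have processed copies elsewhere in the genome, and the sources do not state how reads that match several places were counted, so their levels are less certain.

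Slc2a1 encodes GLUT1, the basal glucose transporter, and ranged over 18.1 to 24.4 CPM (median 21.6) in IR+Decursin, 19.3 to 32.4 CPM (median 26.6) in IR and 11.8 to 16.9 CPM (median 15.1) in SHAM. Here both IR+Decursin and IR were wholly above SHAM, and the rise in IR was 0.86 ± 0.11 (adjusted p = 1.02e-05). Pfkfb3 and Pfkfb4, inducible forms of the fructose 2,6-bisphosphate enzyme, rose by 0.86 ± 0.19 and 0.83 ± 0.16. Hk1 (0.22 ± 0.12), the platelet phosphofructokinase Pfkp (0.24 ± 0.16), the liver phosphofructokinase Pfkl (-0.01 ± 0.10), the lactate dehydrogenase subunit Ldha (0.02 ± 0.08) and the brain glycogen phosphorylase Pygb (-0.26 ± 0.18) were not called in IR vs SHAM.

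Upstream sequences of the lactate exporter, the phosphoglycerate mutase pair and muscle enolase are shown as examples, picked with their changes known. They are the 250 bases before the RefSeq transcription start (build GRCm38.p6), in the sense of the gene, at chr11:120948817-120949066 (+) for Slc16a3, chr19:41911621-41911870 (+) for Pgam1, chr11:5803797-5804046 (-) for Pgam2 and chr11:70656926-70657175 (+) for Eno3. Capitals mark ACGTG or GCGTG on either strand, the core letters of the hypoxia response element bound by HIF factors.
Slc16a3: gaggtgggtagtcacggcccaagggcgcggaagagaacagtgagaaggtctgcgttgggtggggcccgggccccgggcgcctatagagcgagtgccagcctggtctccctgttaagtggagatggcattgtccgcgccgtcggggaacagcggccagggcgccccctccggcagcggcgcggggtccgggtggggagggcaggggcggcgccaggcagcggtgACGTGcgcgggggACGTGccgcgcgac
Pgam1: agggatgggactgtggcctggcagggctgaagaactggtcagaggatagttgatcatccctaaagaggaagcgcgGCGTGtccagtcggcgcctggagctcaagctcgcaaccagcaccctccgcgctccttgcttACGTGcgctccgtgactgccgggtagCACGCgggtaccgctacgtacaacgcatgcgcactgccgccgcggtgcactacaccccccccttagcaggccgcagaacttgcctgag
Pgam2: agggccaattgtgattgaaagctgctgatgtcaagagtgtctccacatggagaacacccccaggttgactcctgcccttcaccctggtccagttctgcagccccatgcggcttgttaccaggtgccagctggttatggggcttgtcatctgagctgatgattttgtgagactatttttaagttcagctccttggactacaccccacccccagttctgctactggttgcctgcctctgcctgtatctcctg
Eno3: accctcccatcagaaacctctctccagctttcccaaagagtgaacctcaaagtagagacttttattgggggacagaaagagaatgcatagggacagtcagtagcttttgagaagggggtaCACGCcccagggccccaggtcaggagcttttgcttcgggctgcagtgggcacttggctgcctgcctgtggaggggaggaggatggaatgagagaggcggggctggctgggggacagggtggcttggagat
Slc16a3 held 2 copies of ACGTG, at 27 and 14 bases before the start, Pgam1 held 3 matches, Pgam2 held 0 and Eno3 held 1. Windows were found for 38 of the 39 members, and 84.2% of these genes had either core in at least 1 window, against 41.5% of the 27025 genes in the table. The share was 90.9% among members that rose in IR, 75.0% among those that fell and 90.0% among those not called. The number of windows a gene has and their base content were not matched between members and all genes. These matches describe letters only.

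A direct view of the isoform balance is the log2 ratio of a non-muscle to a muscle form within each library, formed from FPKM + 0.1, since a library's scaling cancels in it. Of 10 such pairs, 9 shifted towards the form classed as non-muscle in IR vs SHAM. The test was an exact two-sided permutation test adjusted over the 10 pairs (adjusted p = 0.00309 to 0.00722 for the 9). For Ldha/Ldhb this is a shift away from the subunit typical of heart. The smallest p that 6 against 6 libraries allow is 0.00216. Pfkm is in both Pfkl/Pfkm and Pfkp/Pfkm, so the pairs are not all separate. The isoform classes behind the pairs were chosen with earlier results of these data known. The enolase ratio Eno1/Eno3 averaged -0.66 ± 0.61 in IR+Decursin, 0.25 ± 0.35 in IR and -1.78 ± 0.10 in SHAM (SD, n = 6 each), a difference of 2.04 between IR and SHAM. The IR range of -0.21 to 0.69 and the SHAM range of -1.86 to -1.60 did not overlap.

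As a share of the summed FPKM of Eno1 and Eno3, the muscle form made up 60.9% ± 9.73 in IR+Decursin, 45.7% ± 5.91 in IR and 77.5% ± 1.19 in SHAM (SD, n = 6 each). Enolase was the only one of the 8 steps compared in this way where the muscle form averaged under 50% in a group. Such shares depend on the gene lengths used for FPKM. By CPM, which is not scaled by length, Eno3 averaged 567 and Eno1 243 in IR, so Eno3 still had more reads. Pgam2 made up 92.1% ± 3.44 of the mutase pair in IR+Decursin, 89.0% ± 1.83 in IR and 96.2% ± 0.675 in SHAM, and GLUT4 made up 92.6% ± 2.21 of the 2 transporters in IR+Decursin, 88.0% ± 2.97 in IR and 95.6% ± 0.485 in SHAM. Hexokinase 2 made up 56.9% ± 3.22 of the summed Hk1, Hk2 and Hk3 in IR+Decursin, 53.4% ± 6.09 in IR and 67.9% ± 0.916 in SHAM.

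Between IR and SHAM the other ratios rose by 1.66 for Pgam1/Pgam2, 1.52 for Slc2a1/Slc2a4, 1.25 for Pfkfb3/Pfkfb2, 0.89 for Pfkp/Pfkm, 0.83 for Ldha/Ldhb, 0.77 for Hk1/Hk2, 0.68 for Pfkl/Pfkm and 0.48 for Pygb/Pygm. For 5 of the 9 pairs that shifted, Ldha/Ldhb, Pfkl/Pfkm, Pfkp/Pfkm, Hk1/Hk2 and Pygb/Pygm, the muscle-type form was called lower and the other form was not called. This split depends on the TMM scaling. With library totals alone Ldha, Pfkl, Pfkp and Hk1 were called higher. For Eno1/Eno3, Pgam1/Pgam2, Slc2a1/Slc2a4 and Pfkfb3/Pfkfb2 both forms were called, in opposite directions. Aldoc/Aldoa differed by 0.08 (exact permutation p = 0.775), on the low reads of both genes. Without any single library, 9 pairs still differed between IR and SHAM.

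**Figure D3:**
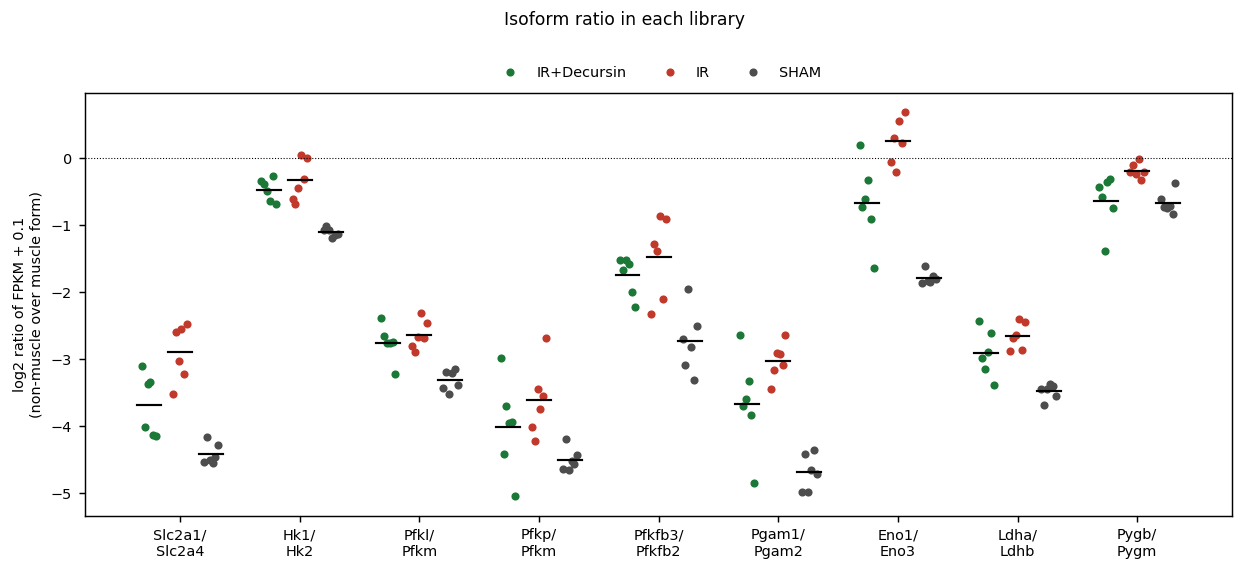
Log2 ratio of the FPKM + 0.1 of a non-muscle to a muscle form (y axis) for 9 isoform pairs (x axis) in each of 6 libraries of IR+Decursin, IR and SHAM; black bars are group means and 0 is equal FPKM. The ratios are higher in IR than in SHAM for the 9 pairs, and the Eno1/Eno3 ratio is above 0 on average in IR only.

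Of the 5 glycolytic enzymes with 1 member, 4 fell in IR vs SHAM. Gapdh, glyceraldehyde-3-phosphate dehydrogenase, fell by 0.53 ± 0.12 on the log2 scale, Pkm, pyruvate kinase, by 0.37 ± 0.08, Pgk1, phosphoglycerate kinase, by 0.33 ± 0.09 and Tpi1 by 0.31 ± 0.09. Gpi1, glucose 6-phosphate isomerase, had -0.14 ± 0.09 and was not called (adjusted p = 0.250). Of these 4 calls only that of Gapdh held when libraries were scaled by their totals alone.

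Scaling matters for the small changes. TMM puts the median change of all genes near 0, whereas totals alone moved that median to 0.31 in IR vs SHAM, 0.22 in IR+Decursin vs SHAM and -0.10 in IR+Decursin vs IR. With totals alone, 17 members rose and 10 fell in IR vs SHAM, and over all genes 7012 rose and 1056 fell. Of the 28 members called in IR vs SHAM, 20 were called in the same direction under every alternative tried, including Eno3, Pgam2, Ldhb, Pygm, Pfkm, Slc2a4, Hk2, Slc16a3, Hk3, Eno1, Pgam1 and G6pdx. With totals alone Gyg, Gys1, Pfkfb2, Pgk1, Pkm, Rpia and Tpi1 were not called, and Aldoa, Hk1, Ldha, Pfkl, Pfkp and Taldo1 were called higher.

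Of the 7 pentose phosphate genes, 4 rose in IR vs SHAM, 1 fell and 2 were not called. G6pdx, the NADPH-producing entry enzyme, ranged over 10.8 to 22.7 CPM (median 16.3) in IR+Decursin, 17.7 to 27.4 CPM (median 20.4) in IR and 7.07 to 9.81 CPM (median 9.41) in SHAM. Every IR and every IR+Decursin library was above SHAM, and G6pdx rose by 1.28 ± 0.15 on the log2 scale in IR (adjusted p = 5.47e-06), the smallest adjusted p of the 38 members.

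Tkt, the transketolase that links the pathway back to glycolysis, rose by 0.95 ± 0.13, and Pgd, the second NADPH-producing dehydrogenase, rose by 0.84 ± 0.12. In the same pathway Pgls, the lactonase, had -0.11 ± 0.09, and Taldo1, transaldolase, had 0.09 ± 0.07, and neither was called. The 2 enzymes that interconvert pentose phosphates moved apart, with Rpe higher by 0.36 ± 0.13 and Rpia lower by 0.36 ± 0.13 (adjusted p = 0.0282 and 0.0271). Both calls were weak: Rpe was not called without SHAM 3, IR 2 or IR 6 (adjusted p = 0.0614, 0.0576 and 0.0862), nor Rpia without SHAM 3, SHAM 5, IR 2, IR 3 or IR 6 (0.0693, 0.0809, 0.0639, 0.0599 and 0.0516).

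The 3 glycogen enzymes with 1 member all fell in IR. Ugp2, which makes the UDP-glucose that glycogen is built from, ranged over 212 to 406 CPM (median 324) in IR+Decursin, 165 to 287 CPM (median 240.5) in IR and 397 to 714 CPM (median 460.4) in SHAM. All IR libraries were below SHAM, and Ugp2 fell by 1.08 ± 0.16 on the log2 scale (adjusted p = 2.35e-05). Gbe1, the glycogen branching enzyme, fell by 0.57 ± 0.10 and Gyg, the glycogenin that primes new glycogen, by 0.36 ± 0.09. Among the other glycogen members Gys1 and Pygm were called lower and Pygb was not called. Gyg and Gys1 were not called with library totals alone (adjusted p = 0.596 and 0.154).

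**Figure D4:**
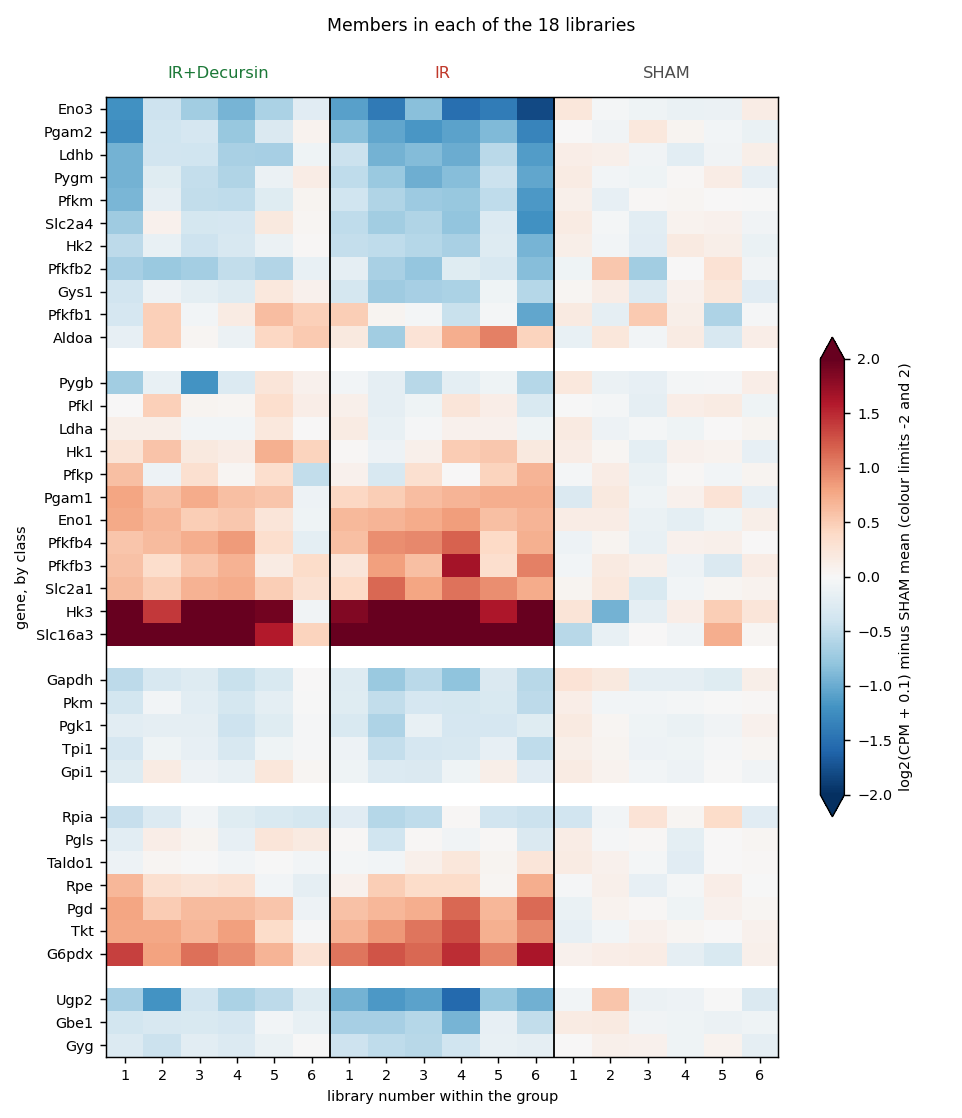
Level of the 38 tested members (y axis, by class) in each of the 18 libraries (x axis), as log2(CPM + 0.1) minus the SHAM mean; red is above and blue below SHAM. Colours end at -2 and 2; within IR+Decursin, Eno3 and Slc16a3 are closest to the SHAM mean in library 6 and farthest from it in library 1.

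Other genes of these pathways, 32 tested of 38 listed, had 6 higher and 14 lower in IR vs SHAM, against 25.3% and 21.7% of all genes. The call with the smallest p was Pygl, liver glycogen phosphorylase, at 15.1 ± 3.65 CPM in IR and 4.66 ± 0.736 CPM in SHAM (SD, n = 6 each), a log2 fold change of 1.69 ± 0.23. Next came H6pd, the glucose 6-phosphate dehydrogenase of the endoplasmic reticulum (0.59 ± 0.10), and Slc2a3, the glucose transporter GLUT3 (1.06 ± 0.19). The transporter Slc2a12 followed at -0.86 ± 0.16. Of 12 regulators, 2 rose and 6 fell in IR, beside the same shares of all genes. Myc, which can induce glycolytic genes, averaged 10.1 ± 3.91 CPM in IR and 2.41 ± 0.792 CPM in SHAM, a log2 fold change of 2.06 ± 0.31. Mlxipl, the glucose-responsive factor ChREBP, fell by 0.95 ± 0.17, the kinase subunit Prkaa2, of AMPK, by 0.56 ± 0.10, and the nuclear receptor Esrra by 0.49 ± 0.12.

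Markers of cell types moved along with these changes, and in bulk tissue fewer cells of a type and less RNA per cell cannot be told apart. All 10 cardiomyocyte markers fell in IR vs SHAM, with summed levels of 47023 to 77250.3 CPM in IR+Decursin, 40891 to 55643 CPM in IR and 74417 to 87510 CPM in SHAM. The median change of those 10 markers was -0.69, beside -0.66 for the muscle-type isoforms. All 10 macrophage markers rose, with summed levels of 391 to 1071 CPM in IR+Decursin, 827 to 1470 CPM in IR and 275 to 393 CPM in SHAM.

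All 7 fibroblast markers rose, with 1513 to 11787 CPM in IR+Decursin, 8413 to 12216 CPM in IR and 1333 to 1569 CPM in SHAM, and so did all 6 cell division genes. Lymphocyte markers had 4 of 7 tested higher, neutrophil markers 2 of 5, erythroid genes 2 of 5 and skeletal muscle markers 1 of 5. The summed skeletal muscle markers were 2.23 to 5.10 CPM in IR+Decursin, 2.31 to 6.14 CPM in IR and 2.54 to 5.01 CPM in SHAM. Endothelial markers had 2 of 7 lower, smooth muscle and pericyte markers 3 of 8 lower, and fat markers 0 of 3 called, with the brown fat gene Ucp1 at 0 in all IR+Decursin and SHAM libraries. The part of these cell types in the changes of the members was not tested.

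Between IR+Decursin and SHAM hearts, 10 members rose and 6 fell, against 17.5% and 11.8% of all genes. Slc16a3 rose by 2.73 ± 0.46 on the log2 scale, Hk3 by 1.98 ± 0.46, G6pdx by 0.90 ± 0.15, Tkt by 0.59 ± 0.13, Slc2a1 by 0.56 ± 0.11, Pgam1 by 0.54 ± 0.12, Pfkfb4 and Pgd by 0.53 ± 0.16 and 0.53 ± 0.12, Eno1 by 0.46 ± 0.11 and Hk1 by 0.40 ± 0.12. Hk1, the general hexokinase, was thus called in IR+Decursin vs SHAM and not in IR vs SHAM, but its change between IR+Decursin and IR was 0.17 ± 0.12 (adjusted p = 0.435). Pfkfb3 had 0.46 ± 0.19 in IR+Decursin vs SHAM and was not called in the main edgeR fit (adjusted p = 0.0747). Several edgeR alternatives called it higher: without IR 4 (0.0121), without the Xist libraries (0.0207) and with only the groups compared (0.00667). So did a replicate block (0.0456), library totals alone (0.0205) and the 3 limma-trend fits of log2 FPKM (0.0234 to 0.0407).

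The 6 members that fell in IR+Decursin vs SHAM were Eno3 (-0.66 ± 0.16), Ugp2 (-0.61 ± 0.16), Pfkfb2 (-0.59 ± 0.17), Ldhb (-0.50 ± 0.14), Pgam2 (-0.44 ± 0.15) and Gapdh (-0.31 ± 0.12). The call of Pfkfb2 was lost with library totals alone (-0.38, adjusted p = 0.0658) and in 3 limma-trend fits of log2 FPKM (adjusted p = 0.106 to 0.119), as were those of Pgam2 and Gapdh. The call of Gapdh (adjusted p = 0.0480) was lost without any 1 of SHAM 1, 2 or 6, IR 3 or 6, or IR+Decursin 1 to 5 (adjusted p = 0.053 to 0.125). The call of Pgam2 was lost without SHAM 1, 3 or 4 or IR+Decursin 1, 2 or 4 (adjusted p = 0.0506 to 0.0777). Slc2a4, Hk2, Pfkm, Gys1 and Pygm, all lower in IR, had log2 fold changes of -0.15, -0.24, -0.35, -0.10 and -0.33 against SHAM. They were not called by edgeR (adjusted p = 0.455, 0.0992, 0.0592, 0.548 and 0.0968). Pfkm was called lower by DESeq2 (adjusted p = 0.0372). It was also called by edgeR when mitochondrial and haemoglobin genes were left out of the scaling (adjusted p = 0.0463).

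IR+Decursin 6 weighed on that count. Without it, 13 members fell against SHAM, the added ones being Pfkm (-0.45), Pygm (-0.45), Hk2 (-0.30), Gbe1 (-0.28), Gyg (-0.26), Pgk1 (-0.25) and Pkm (-0.23), with adjusted p of 0.0115 to 0.0497. Some of these also passed without another library: Pfkm without IR 1 or 6, Gyg without SHAM 6 or IR 1, Gbe1 without IR 1, 4 or 5 or IR+Decursin 5, and Rpia fell without SHAM 1 (-0.38, adjusted p = 0.0358). Without the libraries with Xist counts, 11 members rose and 4 fell against SHAM.

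In the isoform ratios, 7 of 10 pairs differed between IR+Decursin and SHAM, each towards the form classed as non-muscle (adjusted exact permutation p = 0.0108 to 0.0155). The differences were 1.12 for Eno1/Eno3, 1.02 for Pgam1/Pgam2, 0.98 for Pfkfb3/Pfkfb2, 0.73 for Slc2a1/Slc2a4, 0.63 for Hk1/Hk2, 0.58 for Ldha/Ldhb and 0.55 for Pfkl/Pfkm. Pfkp/Pfkm differed by 0.49 and passed without IR+Decursin 6 (0.70, adjusted p = 0.0108), and Pygb/Pygm by 0.04. Of the 32 tested pathway genes, 6 were higher and 5 lower, against 17.5% and 11.8% of all genes. The calls with the smallest p were Pygl (1.14 ± 0.23), H6pd (0.45 ± 0.10), Eno2, the neuronal enolase (0.94 ± 0.24), and Pgm2, a phosphoglucomutase (0.62 ± 0.16). Among regulators Myc was higher, at 5.55 ± 2.57 CPM in IR+Decursin and 2.41 ± 0.792 CPM in SHAM (SD, n = 6 each), and Mlxipl (-0.54 ± 0.17) and Prkaa2 (-0.29 ± 0.10) were lower. Beside these counts, 5 of 10 cardiomyocyte markers were lower and 10 of 10 macrophage, 6 of 7 fibroblast and 6 of 6 cell division genes were higher in IR+Decursin than in SHAM, and their part was not tested.

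Between IR+Decursin and IR hearts, 0 of 38 members and 0% of all genes were called in either direction by edgeR. At an unadjusted p under 0.05, 11 members were higher and 7 lower, against 10.1% and 7.87% of all genes. The median change was 0.36 over the 11 muscle-type isoforms, -0.16 over the 12 tested non-muscle isoforms and -0.02 over all genes, and in each class these signs were opposite to those of IR vs SHAM. IR libraries enter both comparisons, so the opposite signs are not independent of each other.

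Eno3 had a log2 fold change of 0.66 ± 0.16 in IR+Decursin vs IR (adjusted p = 0.0930), with 4 of 6 IR+Decursin libraries above all IR libraries. Pgam2 had 0.60 ± 0.15 (adjusted p = 0.0941) with 5 of 6 libraries above all IR libraries, and Slc2a4 had 0.50 ± 0.15 (adjusted p = 0.123) with 3 of 6. Ugp2 had 0.47 ± 0.16 and 5 of 6 libraries above IR. In the other direction, Slc16a3 had -0.88 ± 0.40 with 3 of 6 libraries below all IR libraries, Hk3 had -0.87 ± 0.42 with 2 of 6, and G6pdx had -0.38 ± 0.15 with 4 of 6. Pgam1, which rose in IR, had -0.06 ± 0.12, and Pfkfb2, which fell in IR, had -0.06 ± 0.17.

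The counts in this comparison depended on the tool and on 1 library. DESeq2 called 4 members higher, Eno3, Gys1, Pgam2 and Slc2a4, and 0 lower of 37 tested, against 3.07% and 0.747% of its 11247 genes with an adjusted p. Without IR+Decursin 1, edgeR called 7 members higher, which were Eno3 (0.75), Pgam2 (0.72), Slc2a4 (0.59), Pygm (0.51), Gys1 (0.44), Pfkm (0.42) and Hk2 (0.37), and 1 lower, G6pdx (-0.49), with adjusted p of 0.0086 to 0.0478. Over all genes 4.58% were then higher and 1.84% lower. Without the Xist libraries 0 members were called.

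IR+Decursin 1 had the lowest Eno3 (605 CPM) and Pgam2 (171 CPM) and the highest Slc16a3 (19.6 CPM), Hk3 (9.65 CPM) and G6pdx (22.7 CPM) of its group. IR+Decursin 6 had the highest Eno3 (1195 CPM) and Pgam2 (427 CPM) and the lowest Slc16a3 (2.22 CPM), Hk3 (1.09 CPM) and G6pdx (10.8 CPM). The same libraries held the ends of the marker sums: the fibroblast sum was 11787 CPM in IR+Decursin 1 and 1513 CPM in IR+Decursin 6, the macrophage sum 1071 CPM in IR+Decursin 1 and 391 CPM in IR+Decursin 6, and the cardiomyocyte sum 47023 CPM in IR+Decursin 1 and 77250.3 CPM in IR+Decursin 6. All 10 cardiomyocyte markers had positive and all 10 macrophage and all 7 fibroblast markers negative changes in IR+Decursin vs IR, with 0 called. Their part in the members' values was not tested.

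Of the 10 isoform ratios, 2 were lower in IR+Decursin than in IR: Eno1/Eno3 by -0.92 and Pygb/Pygm by -0.45 (exact permutation p = 0.00866 and 0.00433, adjusted p = 0.0433 for both). Slc2a1/Slc2a4 differed by -0.79 and Pgam1/Pgam2 by -0.64 and did not pass (adjusted p = 0.0722 and 0.157). Eno1/Eno3 was not called without IR 2, 4, 5 or 6 or IR+Decursin 2, 3, 4, 5 or 6, and Pygb/Pygm without IR 2, 4 or 6 or IR+Decursin 2, 3, 4 or 6 (adjusted p = 0.0649 to 0.0866). Leaving out single libraries gave differences of -0.99 to -0.72 for Eno1/Eno3 and -0.50 to -0.30 for Pygb/Pygm in these cases. Slc2a1/Slc2a4 passed without IR 1 (adjusted p = 0.0289) or IR+Decursin 1 (0.0433), and Pgam1/Pgam2 without IR+Decursin 1 (0.0289). Without the Xist libraries the differences were -0.95 for Eno1/Eno3 and -0.43 for Pygb/Pygm. With 5 IR+Decursin and 4 IR libraries the smallest exact permutation p is 0.0159, so fewer than 4 of the 10 pairs cannot pass the adjustment.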

How the data were processed

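RNA-seq libraries were made from 18 hearts, 1 from each mouse. The authors deposited raw counts and FPKM for 25731 gene symbols. Per the submitters' processing notes, the tools were fastp, HISAT2 and HTSeq, with build GRCm39. Their versions, the strand setting and the annotation are not given. The deposited FPKM follow from count, gene length and library total, with a largest relative deviation of 1.58e-09, so they carry the total's share of mitochondrial reads.

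Counts were tested with edgeR 4.0.16 (R 4.3.3): filterByExpr by group, TMM factors, a robust quasi-likelihood fit of all 18 libraries with a mean per group (15 residual degrees of freedom), two-sided F-tests and Benjamini-Hochberg adjustment over 15088 genes. The code was tested on simulated data first. Depth of 27.5 to 35.0 M counts leaves few reads only for the lowest members, such as Aldoc, Aldoa, Hk3 and, in SHAM, Slc16a3. Isoform ratios used log2(FPKM + 0.1) and exact permutation tests (scipy 1.17.1), adjusted over 10 pairs. Alternatives were DESeq2 1.42.0, limma-trend 3.58.1 on log2 FPKM, other scalings and filters, a replicate block, single libraries left out and the 3 Xist libraries left out. The members, isoform classes and lists were chosen with earlier results of these data known. Every member is named; of the pathway lists, up to 4 called genes with the smallest p a comparison are named. Promoter sequences are RefSeq's; no protein sequences were used here. Gene models per symbol were counted in GENCODE vM21.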

Additional observations from a re-analysis of the deposited data

Results flagged for a closer look

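Over 114 sets of 6 CPM values, 1 for each tested member in each group, 3 values stood far from the other 5 of their group by Dixon's test at the 95% level. Chance alone gives about 5% of sets. IR+Decursin 6 had 29.8 CPM of Pgam1, and the other IR+Decursin libraries had 46.9 to 55.2 CPM. The same library had 27.2 CPM of Pgd, and the others had 41.7 to 50.8 CPM. Both values were inside the SHAM range, and this library also held the lowest fibroblast and macrophage marker sums of its group. SHAM 2 had 714 CPM of Ugp2, and the other SHAM libraries had 397 to 486 CPM.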

How the results depend on the processing

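Of the 28 members called in IR vs SHAM, 20 kept call and direction under every alternative tried, and 26 did so when scaling by totals alone and the FPKM fits were set aside; of 16 in IR+Decursin vs SHAM these numbers were 13 and 14. Library totals alone gave 17 members higher and 10 lower in IR vs SHAM and 3 lower in IR+Decursin vs SHAM, with 7012 genes higher and 1056 lower, and 4781 and 377. On log2(FPKM + 1), log2(FPKM + 0.1) and log2(FPKM + 1) for genes averaging at least 1 FPKM, limma-trend gave 6901 genes higher with 1089 lower, 6940 with 1092, and 978 lower in the last; members were 17 higher in the second and last fits and 10 lower in all 3. In IR+Decursin vs SHAM these fits gave 395, 387 and 362 genes lower, 4268 higher in the second, and 3 members lower. Pfkl was at -0.01 with TMM and was called higher in IR vs SHAM at 0.30 with totals, 0.29 on log2(FPKM + 0.1) and 0.28 in the last fit. These scalings differ by construction in the median of all genes. In IR+Decursin vs IR, DESeq2 called 345 genes higher and 84 lower, with 4 members higher; the cause was not tested.

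Leaving out 1 library gave 0 to 696 genes higher, 0 to 280 lower, 0 to 7 members higher and 0 to 1 lower in IR+Decursin vs IR, 4 to 13 members lower in IR+Decursin vs SHAM, and 0 to 4 isoform pairs differing in IR+Decursin vs IR. Without the Xist libraries 0 pairs passed in IR+Decursin vs IR, where fewer than 4 of 10 pairs cannot pass the exact test after adjustment, and the differences were -0.95 for Eno1/Eno3 and -0.43 for Pygb/Pygm, against -0.92 and -0.45 with all libraries.

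The labels do not say that replicate numbers pair the animals. In deviations from group means, 18 same-numbered pairs of libraries had correlations of -0.40 to 0.31. Libraries of different number reached similar values, such as 0.40 for IR 1 with IR+Decursin 6 and -0.34 for IR 4 with IR+Decursin 6. These values cannot show whether animals were paired, and the main tests used no pairing. With the number as a replicate block, 10 members rose and 17 fell in IR vs SHAM, 11 rose and 4 fell in IR+Decursin vs SHAM and 0 were called in IR+Decursin vs IR. The exact sign-flip form of the block gave 8 pairs in IR vs SHAM, where Pfkp/Pfkm was lost (adjusted p = 0.0694), 0 in IR+Decursin vs IR and 0 in IR+Decursin vs SHAM. Its smallest p is 0.0312, so it could pass only with 7 or more of 10 pairs at that p; the differences themselves are the same as without the block.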
